A study of Mus musculus with 1037 samples.

Results

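Immediate early genes are the genes a cell transcribes within minutes of a stimulus, before any new protein has been made. The kinases that carry growth, cytokine and stress signals act on factors already bound at their promoters, and the proteins they encode then switch on a later set of genes or shut the signal off again. In skin epithelium they are best known from wounding, from growth factor signalling in keratinocytes and from the handling of tissue, since digestion of skin into single cells can itself switch them on. The 10 genes described here cover this programme from its transcription factors to its brakes. Fos and Fosb encode Fos proteins and Jun, Junb and Jund encode Jun proteins, which pair into the AP-1 transcription factor. Atf3 encodes a stress-induced factor of the ATF family that binds AP-1 and cAMP response elements, Egr1 a zinc finger factor, Ier2 a small nuclear regulator, Dusp1 a phosphatase that inactivates MAP kinases, and Hspa1a an inducible HSP70 chaperone. They were chosen by name, with earlier results of these data known. They were found by Ensembl identifier and are 10 of 55335 genes in the table. All 10 had counts in every group with usable cells.

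The libraries were Smart-seq2, a method that amplifies the polyadenylated RNA of single cells sorted into wells, and came from skin of wild type mice, given as hair follicle epithelial cells. At AnaVI, the end of hair growth, the sorts LOS (93 cells, lower outer root sheath, ORS), MOS (72 cells) and UOS (both upper-middle ORS) were taken. At CatVI, in the regression phase and on postnatal day 17, upper ORS cells were sorted into 6 plates whose titles read PhagoHFSC alive (plates 1 and 2), NonPhagoHFSC alive (plates 3 and 4), PhagoHFSC apop (plate 5) and NonPhagoHFSC apop (plate 6). At CatVII the upper ORS was sorted as OSalive and OSapop. Alive and apop name sorts without and with annexin V, a protein that binds phosphatidylserine on the surface of dying cells; what the other plate words mean is not given in the sources used here. All cells went through enzymatic digestion of the skin before the sort, and CD34 and integrin α6 were used to take the cells, with blood, endothelial, fibroblast and melanocyte lineages gated out by surface markers. Every stage was a pool of 3 to 6 mice that the labels do not name. Each group was therefore 1 sample, no test between groups was possible, and the 95% intervals given cover counting error only.

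Cells with 2000 or more detected genes were kept, 463 of the 911 cells in 9 groups. They were 39 cells of LOS, 38 of MOS, 19 and 9 of plates 1 and 2, 15 and 14 of plates 5 and 6 and 92 of OSapop. In UOS 83.6% of the cells passed and 22 did not, and in OSalive 80.1% passed and 31 did not. No cell of plates 3 and 4 passed, so that CatVI NonPhagoHFSC cells have an apop plate and no alive plate to set it against. The 67 and 57 cells of these plates held 0 counts of the 10 genes, within 1104 and 27556 gene counts in all. Their median cell had 0 and 9 detected genes, which is too little to show whether the 10 genes were expressed. The median cell held 2182588 gene counts in OSalive, 482289 in OSapop and 471277 in UOS, and between 90483 and 299387 in the CatVI plates. Markers of ORS epithelium, 11 of 11, had counts in all 9 groups. Their summed level ran from 1672 counts per 1000000 gene counts (CPM) in plate 2 to 6892 CPM in plate 5. Cd34, a marker used in the sort, was at 1.46, 9.71, 1.78 and 2.17 CPM in plates 1, 2, 5 and 6. It was at 24.9, 21.5 and 80.6 CPM in LOS, MOS and UOS, and at 111.1 and 101.9 CPM in OSalive and OSapop. Fibroblast markers summed to 1405 CPM in LOS, 353 CPM in UOS, and 188.7 and 186.5 CPM in OSalive and OSapop. Endothelial markers summed to 124.4 CPM in LOS and 80.96 CPM in plate 1, with all 5 detected in both, and melanocyte markers to 160.4 CPM in LOS and 190.3 CPM in plate 2. Their part in the levels of these groups was not tested. The mitochondrial share was highest in plate 2, at 9.42% against 1.87% to 5.22% in the other groups. Among 107416 pairs of passing cells, 2 OSapop cells from neighbouring wells had near-identical counts (r = 0.945, with 0.727 for the next pair and a median of 0.336), and may hold the same RNA. OSapop results are therefore also given without the shallower of the pair.

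To show what lies in front of these genes, the 250 bases before the start of the canonical transcript were read from GRCm39 for all 10 and searched on both strands for 5 motifs. These were the cAMP response element TGACGTCA, the AP-1 site TGACTCA, the EGR site GCGTGGGCG, the heat shock element GAANNTTCNNGAA and the CArG box of serum response factor. The cAMP response element, a site for ATF and CREB factors, stood in front of 3 of the 10 genes and of 1.69% of 21770 protein-coding promoters. The other motifs had no exact match in these windows of the 10 genes and occurred in 0.349% to 4.02% of all windows. Sites farther than 250 bases from the start, or with letters that depart from these patterns, were not searched for. A match is a description of the letters, not evidence of binding. The 3 windows that hold the element are printed 5′ to 3′ toward the gene, with the element in capitals.
Jund, chr8:71151349-71151598, plus strand: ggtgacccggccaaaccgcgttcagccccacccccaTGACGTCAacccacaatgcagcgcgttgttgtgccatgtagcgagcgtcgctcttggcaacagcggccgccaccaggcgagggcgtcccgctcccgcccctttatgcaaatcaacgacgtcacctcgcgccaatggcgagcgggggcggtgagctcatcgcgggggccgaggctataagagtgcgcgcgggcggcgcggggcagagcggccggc
Ier2, chr8:85389484-85389733, minus strand: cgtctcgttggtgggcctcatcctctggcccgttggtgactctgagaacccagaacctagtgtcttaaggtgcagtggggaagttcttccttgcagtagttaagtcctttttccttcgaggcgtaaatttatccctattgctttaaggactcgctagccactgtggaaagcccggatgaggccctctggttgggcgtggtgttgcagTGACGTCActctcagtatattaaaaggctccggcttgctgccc
Dusp1, chr17:26727494-26727743, minus strand: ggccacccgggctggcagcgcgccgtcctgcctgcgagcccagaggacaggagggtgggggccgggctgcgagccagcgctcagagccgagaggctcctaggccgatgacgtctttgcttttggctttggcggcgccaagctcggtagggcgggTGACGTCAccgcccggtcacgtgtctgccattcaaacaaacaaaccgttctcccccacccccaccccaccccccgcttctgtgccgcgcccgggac
The element ends 36 bases before the start in Ier2, 89 bases before it in Dusp1 and farthest from it in Jund. Jun, Junb, Jund, Ier2 and Hspa1a are genes of a single exon, whereas the others are spliced, with 2 exons in Egr1 and 4 in Fos, Fosb, Atf3 and Dusp1.

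Jun and Fos had the highest levels of the set per length in UOS at AnaVI and, with Dusp1, in OSalive at CatVII. In OSalive, level per kilobase of canonical transcript was 96.7 CPM for Jun, 89.1 CPM for Fos and 88.9 CPM for Dusp1, against 10.7 CPM for Jund. In UOS, it was 89.03 CPM for Jun and 88.4 CPM for Fos, then 46.5 CPM for Ier2, 46.3 CPM for Egr1 and 46.3 CPM for Dusp1, with 11.3 CPM for Jund. Jun and Fos led in UOS. In OSalive they led together with Dusp1, which was too close to Fos to rank. Jund was last in both sorts, while Ier2 stood next to last in OSalive at 13.4 CPM. The order was not that of every sort, and in MOS Egr1 led at 85.9 CPM per kilobase, before Jun at 65.8 CPM and Hspa1a at 61.3 CPM.

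Fos, the partner that AP-1 gains on stimulation, was at 103.3 CPM in LOS, 81.2 CPM in MOS and 186.8 CPM in UOS. It was at 74.2 and 69.3 CPM in plates 1 and 2, at 33.8 and 60.9 CPM in plates 5 and 6, and at 188.4 CPM in OSalive and 105.6 CPM in OSapop. The counting intervals of OSalive (186.85 to 190.03 CPM) and UOS (183.6 to 190.1 CPM) overlapped, as did those of OSapop and LOS and those of MOS and plate 1. Every CatVI plate was below the AnaVI and CatVII sorts. In LOS, 69.4% of the Fos counts came from 1 cell. Fosb, a Fos protein that comes up slightly later, was at 31.9 CPM in LOS, 57.2 in MOS and 83.2 in UOS, at 101.7, 105.1, 28.9 and 152.2 CPM in plates 1, 2, 5 and 6, and at 172.05 CPM in OSalive and 87.96 CPM in OSapop. Its value in plate 6 was carried by few cells, since 3 of 14 cells had a count and 79.3% of the counts came from 1 of them.

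Jun, which makes most AP-1 dimers together with Fos proteins, was at 178.2, 209.9 and 283.9 CPM in LOS, MOS and UOS. It was at 168.8, 271.6, 155.5 and 92.9 CPM in plates 1, 2, 5 and 6, and at 308.4 CPM in OSalive and 188.3 CPM in OSapop. A count was present in 93.8% of UOS cells, the highest share of the set there, and in 91.2% of OSalive cells, next to 94.4% for Hspa1a. Junb, a Jun protein that also restrains epidermal inflammation, had its highest levels at AnaVI, with 78.1 CPM in MOS and 73.3 CPM in UOS, 37.05 CPM in LOS, and 30.4 to 46.4 CPM in the catagen groups. Over all 9 groups Junb varied least, its highest group being MOS and its lowest OSalive, 1.36 apart on the log2 scale. Jund, the Jun protein that most cells make at rest, was at 8.03, 12.6 and 18.8 CPM in LOS, MOS and UOS, at 2.55, 19.9, 9.57 and 2.72 CPM in plates 1, 2, 5 and 6, and at 17.8 CPM in OSalive and 7.82 CPM in OSapop. Its plate values rested on 5 to 45 counts.

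Atf3 was at 11.7, 4.92 and 27.3 CPM in LOS, MOS and UOS, at 31.7, 11.5, 8.01 and 50.5 CPM in plates 1, 2, 5 and 6, and at 54.7 CPM in OSalive and 29.02 CPM in OSapop. It was the gene detected in the fewest cells of UOS, OSalive and OSapop, with a count in 41.96%, 44.8% and 22.8% of them. Of the 93 counts of plate 6, 97.8% came from 1 cell. Egr1, which couples growth factor signals to transcription, was highest in MOS at 386 CPM, with 67.2 CPM in LOS and 208.2 CPM in UOS. It was at 67.6, 69.8, 110.3 and 63.6 CPM in plates 1, 2, 5 and 6, and at 233.2 CPM in OSalive and 148.1 CPM in OSapop. In MOS, 36.6% of its counts came from 1 of 38 cells. The median MOS cell was at 125.1 CPM, next to 123.2 CPM for the median UOS cell.

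Ier2 had the largest difference of the set between UOS and OSalive. It was at 53.003, 58.5 and 70.8 CPM in LOS, MOS and UOS, at 20.6, 47.2, 19.4 and 15.2 CPM in plates 1, 2, 5 and 6, and at 20.4 CPM in OSalive and 13.9 CPM in OSapop. Dusp1 varied most across groups, from 176.9 CPM in OSalive to 1.63 CPM, or 3 counts, in plate 6. Between these it was at 106.3, 68.2 and 92.1 CPM in LOS, MOS and UOS, at 37.7, 164.7 and 14.7 CPM in plates 1, 2 and 5, and at 79.1 CPM in OSapop. A single cell gave 94.6% of the LOS counts of Dusp1 and 73.2% of those in plate 2.

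Hspa1a was highest in MOS at 181.9 CPM, with 64.6 CPM in LOS and 39.6 CPM in UOS. It was at 37.02, 25.6, 19.1 and 6.52 CPM in plates 1, 2, 5 and 6, at 58.7 CPM in OSalive and at 45.96 CPM in OSapop. Reads of Hspa1a and of its near-identical neighbour Hspa1b, also on chromosome 17, cannot be fully told apart, so the split between them is uncertain. Hspa1b was likewise highest in MOS, at 132.5 CPM, with 82.3 CPM in LOS and 44.4 CPM in UOS, and both genes were thus higher in MOS than in UOS.

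**Figure D1:**
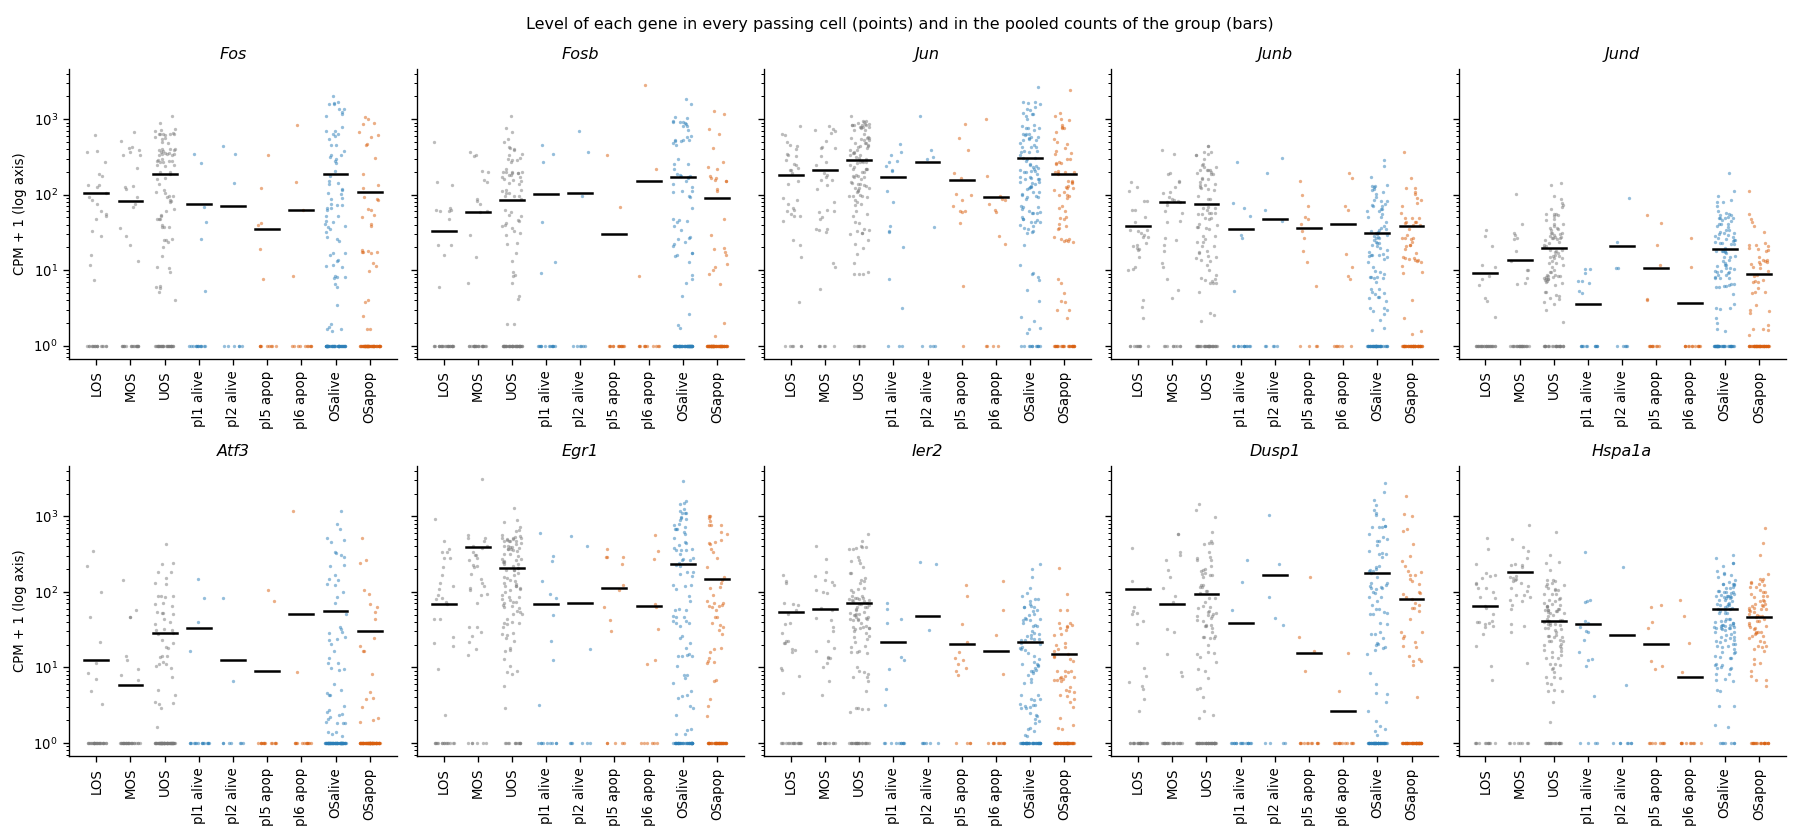
Level of each of the 10 genes in CPM + 1 on a log axis (vertical) in every passing cell (points) of the 9 groups (horizontal), with the pooled level of the group as a black bar; grey marks AnaVI, blue alive and orange apop sorts. Many cells sit at 0 counts for Fos, Fosb, Atf3 and Dusp1 while others lie far above the pooled level, and the pooled Fos level is 188.4 CPM in OSalive and 105.6 CPM in OSapop.

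The comparison of the CatVII apop and alive sorts asks how the programme differs between annexin V-positive cells and their unlabelled neighbours. Pooled levels were lower in OSapop than in OSalive for 9 of the 10 genes and higher for Junb alone. The log2 ratio of OSapop to OSalive was −0.83 for Fos (−0.87 to −0.80), with 105.6 against 188.4 CPM, and −0.71 for Jun (−0.74 to −0.69), with 188.3 against 308.4 CPM. The largest differences were those of Jund (17.8 and 7.82 CPM, log2 ratio −1.18) and Dusp1 (176.9 and 79.1 CPM, −1.16), followed by Fosb at −0.97 and Atf3 at −0.91. Egr1 (−0.66), Ier2 (−0.56) and Hspa1a (−0.35, −0.41 to −0.30) differed less. Junb was 30.4 CPM in OSalive and 37.2 CPM in OSapop, for a ratio of 0.29 (0.23 to 0.35).

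The median log2 ratio of the 10 genes was −0.77, against 0.12 over the 13886 genes with 100 or more counts, so the set stood 0.89 below the median gene (difference −0.89). The 2 genes that were at least 2-fold lower, Jund and Dusp1, compare with 11.3% of all genes tested past that fold in that direction. None of the 10 was at least 2-fold higher, where 10.6% of all genes were. These counts moved with the scaling. With TMM factors 5 of the 10 were at least 2-fold lower and none higher, beside 13.9% and 7.86% of all genes, and with ERCC spike-ins none of the 10 passed that fold either way, beside 8.68% lower and 17.9% higher. Without the shallower of the near-identical cells the median was also −0.77. Melanocyte markers summed to 42.9 CPM in OSalive and 43.7 CPM in OSapop, with Kit and Mlana at 0 in both and Mitf at 42.1 and 42.4 CPM. Endothelial markers summed to 0.832 and 1.14 CPM and immune markers to 4.997 and 6.08 CPM. The sums were thus similar in both sorts, while single markers differed. Fibroblast markers summed to 188.7 and 186.5 CPM, but Col3a1 was at 65.5 CPM in OSalive and 20.96 CPM in OSapop. In the other direction, Col1a1 was at 91.6 and 136.3 CPM. Of the endothelial markers, Cdh5 was at 0.609 CPM in OSalive and 0 in OSapop, and Pecam1 at 0.0278 and 0.63 CPM. Single immune markers differed too. Cd74 was at 0.557 CPM in OSalive and 4.09 CPM in OSapop, and in the other direction Lyz2 was at 2.13 and 0.602 CPM and Laptm5 at 1.73 and 0.301 CPM. Depth differed as well, and so did the share of cells that passed, 80.1% in OSalive and 65.2% in OSapop. Their part in the ratios was not tested beyond the thinned values below.

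Cells of the 2 sorts fell into 2 runs by the numbers in their titles, each with alive and apop cells, so that the ratio could be taken within each. In series 1 (61 alive and 47 apop cells), the median of the 10 genes was −0.68, and in series 2 (60 and 45 cells) it was −0.88. Fos (−0.82 and −0.91), Jun (−0.78 and −0.71), Egr1 (−0.57 and −0.85) and Dusp1 (−1.04 and −1.47) had similar ratios in both series. Fosb and Atf3 were lower in OSapop in both, but by unequal amounts, at −0.53 and −1.94 for Fosb and −0.58 and −2.31 for Atf3. The remaining genes did not hold their ratio across the series. Junb was higher in OSapop in series 1 (1.13) and lower in series 2 (−0.61), Jund was at −2.24 and −0.06, Ier2 at 0.04 and −1.64, and Hspa1a at −0.94 and 0.25. Hspa1b was at −0.73 in series 1 and close to 0 in series 2. For Junb, Ier2 and Hspa1a, the direction found over all cells held in 1 of the series. A further 4 OSalive cells could be placed in neither.

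Pooled counts weigh cells by depth, and in OSapop few cells carried most of them. The 10 OSapop cells with the highest counts of a gene gave 90.6% of the Fos counts, 93.01% of the Fosb counts and 98.4% of the Atf3 counts, where in OSalive the top 13 cells gave 67.9%, 62.3% and 86.6%. Leaving out the cell of highest count for each gene and sort lowered the median of the 10 genes to −1.29 and put Junb at −0.17 and Ier2 at −1.41. For Ier2, 1 cell held 52.3% of the OSapop counts, and for Junb it held 34.4%. The share of cells with a count did not depend on such cells. When every cell was thinned to 50000 counts, Fos was detected in 49.2% of OSalive cells (40.1% to 58.3%) and 29.4% of OSapop cells (20.02% to 40.3%, 85 cells), where without thinning it was detected in 60% and 39.1%. Thinning left out 1 OSalive and 7 OSapop cells below that depth. Jun was detected in 81.5% and 62.4% of thinned cells (91.2% and 73.9% unthinned), and Jund in 43.5% and 24.7% (71.2% and 47.8% unthinned). All 10 genes had the lower share in OSapop, and the 95% intervals of the shares overlapped for 9 of the 10 genes, Jun being the exception. How many of all genes had the lower share in OSapop was not counted, so this number has no background beside it. Junb, too, was detected in fewer OSapop cells, 36.5% against 42.7%. Hspa1a was close in both, at 67.1% and 74.2%.

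**Figure D2:**
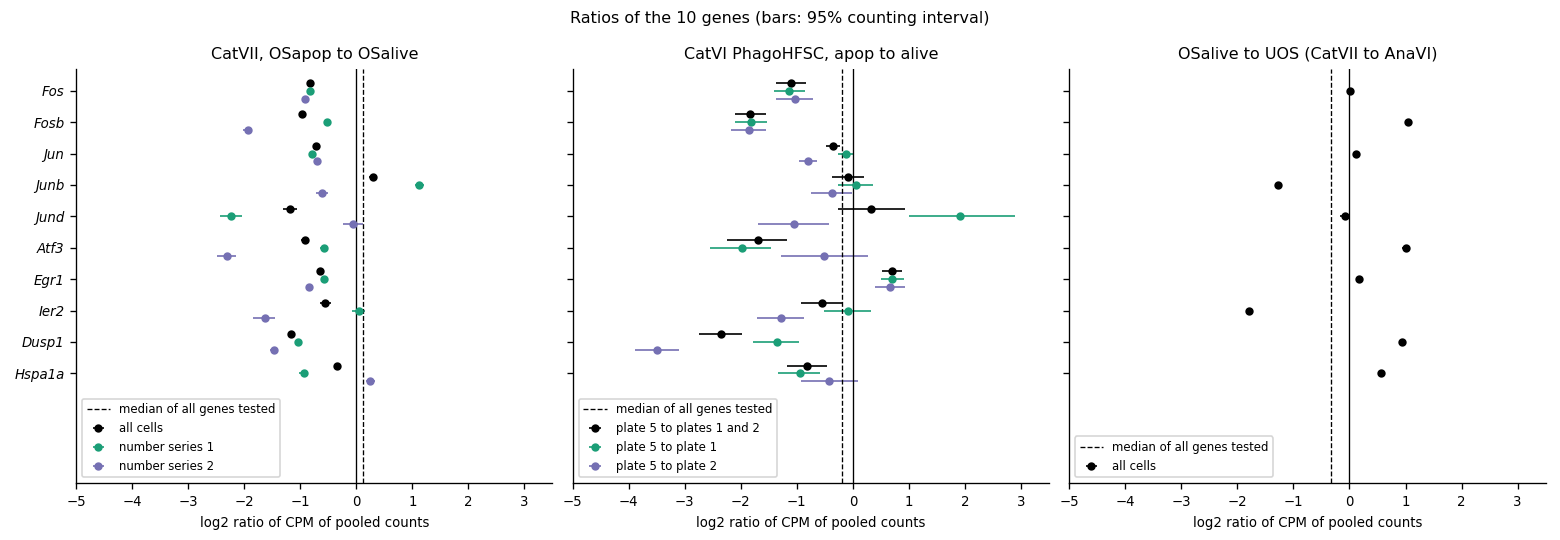
Log2 ratio of pooled CPM (horizontal) for the 10 genes (vertical) in the CatVII apop to alive, CatVI PhagoHFSC apop to alive and OSalive to UOS comparisons; points are all cells (black) or the subsets named in each panel, bars are 95% counting intervals and the dashed line is the median of all genes tested. In CatVII 9 of 10 black points lie below 0, with Junb at 0.29 and the dashed line at 0.12. In the third panel Ier2 lies at −1.79 and Fosb at 1.05.

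How many of the 10 genes a cell expressed together also differed between the sorts. At 50000 counts per cell, the median number of genes with a count was 4 in OSalive and 3 in OSapop, and 6 in UOS. No gene of the set was detected in 6 of 85 OSapop cells, in 1 OSalive cell, or 0.806%, and in 0 UOS cells, which allows a UOS share of up to 2.70%. Cells with 8 or more of the genes made up 10.6% of OSapop, 25.8% of OSalive and 30.6% of UOS. The summed level of the 10 genes in the median cell was 755 CPM in UOS, 395 CPM in OSalive and 194.1 CPM in OSapop. The interquartile range of cells was 132.4 to 1506 CPM in OSalive and 81.1 to 539 CPM in OSapop, so that the ranges overlapped. In the other groups the median cell was at 383 CPM in LOS, 589 CPM in MOS, and 316, 111.1, 206.4 and 120.2 CPM in plates 1, 2, 5 and 6.

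**Figure D3:**
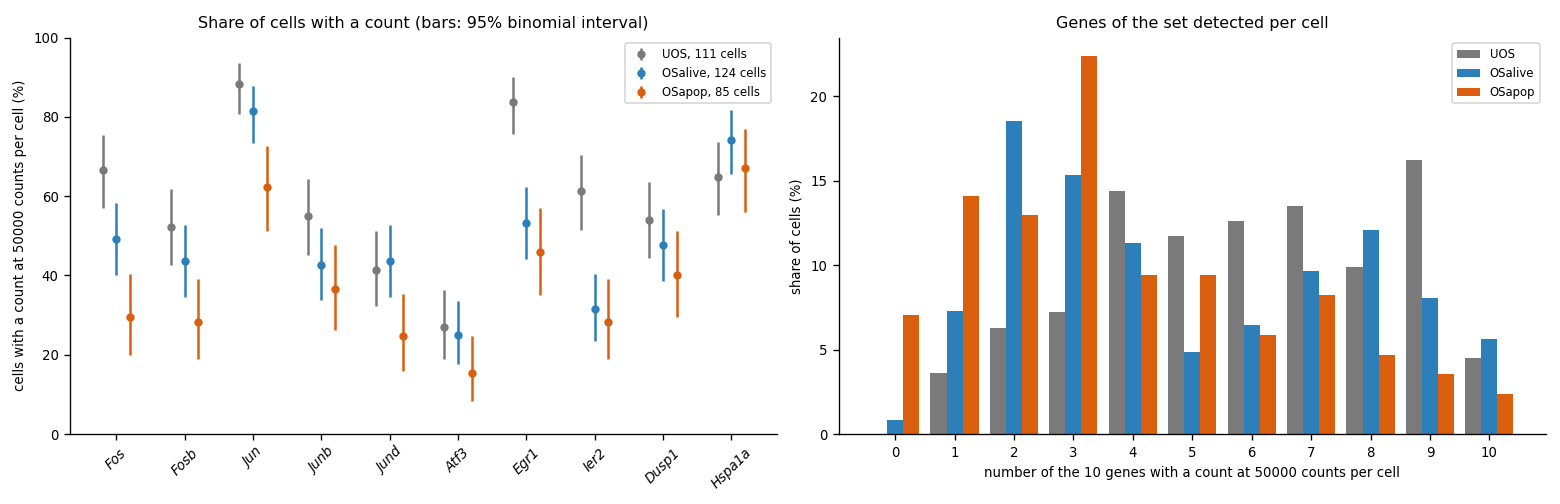
Left, share of cells (%) with a count of each gene after thinning to 50000 counts in UOS, OSalive and OSapop, with 95% binomial intervals; right, share of cells (%) by how many of the 10 genes had a count. Shares are lower in OSapop than in OSalive for all 10 genes, as for Fos at 29.4% against 49.2%, and cells with none of the genes are 7.06% of OSapop and 0.806% of OSalive. The same count over all genes was not made.

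The genes also varied together among cells of the same sort. Over the 45 gene pairs, the median Spearman correlation of CPM was 0.414 in UOS, 0.465 in OSalive and 0.331 in OSapop, given as a description since cells of a sort share a pool. Fos and Fosb were among the most alike pairs, at 0.751, 0.843 and 0.746 in UOS, OSalive and OSapop. Fos and Jun stood at 0.787 in UOS, 0.723 in OSalive and 0.527 in OSapop. Hspa1a was least tied to the others in UOS and OSalive, with a median correlation of 0.146 and 0.243, and Fos was at 0.569 and 0.660. In OSapop Jund (0.182) and Ier2 (0.204) were below Hspa1a (0.282). With the number of detected genes per cell, the correlation of Fos was 0.124, 0.009 and 0.279 in the 3 sorts.

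At CatVI the same question could be asked of PhagoHFSC cells, with plate 5 as apop and plates 1 and 2 as alive. Here 8 of the 10 genes were lower in the apop plate. The median log2 ratio of all 5260 genes tested was −0.19, so that most of all genes were lower there too. Dusp1 was at 37.7 and 164.7 CPM in the alive plates and at 14.7 CPM in the apop plate, a log2 ratio of −2.35 (−2.74 to −1.98). Fosb was at 101.7 and 105.1 CPM against 28.9 CPM, a ratio of −1.83 (−2.11 to −1.56), and Fos at 74.2 and 69.3 CPM against 33.8 CPM, a ratio of −1.11. Both alive plates were thus above the apop plate in pooled level for these 3 genes. Atf3 was at −1.69, or 0.42 when cells were thinned to 50000 counts, Hspa1a at −0.82, Ier2 at −0.55, Jun at −0.35, or 0.28 when thinned, and Junb at −0.09 (−0.38 to 0.19). Egr1 ran the other way, with 67.6 and 69.8 CPM in the alive plates and 110.3 CPM in the apop plate, for a ratio of 0.69 (0.51 to 0.87). Jund was at 0.33 with an interval that spanned 0 (−0.27 to 0.92), and its alive plates differed widely, at 2.55 and 19.9 CPM, so that it was at 1.91 against plate 1 alone and at −1.05 against plate 2 alone.

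The median of the 10 genes was −0.68 at CatVI, against −0.19 over 5260 genes. At least 2-fold lower were 4 of the 10, Fos, Fosb, Atf3 and Dusp1, beside 22% of all genes tested, and none was at least 2-fold higher, beside 10.8%. Egr1 alone was at least 1.5-fold higher, beside 20.2% of all genes. Each plate held few passing cells, 19, 9 and 15, and a single cell gave 82.3% of the apop counts of Fosb and 80.3% of those of Dusp1. With the mean of CPM per cell in place of pooled counts the median of the set was −0.21, next to −0.17 for all genes. Against plate 1 alone the median was −0.54 and against plate 2 alone −0.92; the melanocyte markers and mitochondrial share of plate 2 moved with these values, and their part was not tested. Plate 1 held the endothelial markers. Without cells that had a count of Pecam1, Cdh5 or Col1a1, markers of endothelium and fibroblasts, the median was −0.81, with Fos at −1.33, Dusp1 at −2.66 and Egr1 at 0.999. Alive and apop plates carried separate runs of numbers in their titles, so that sort and plate cannot be told apart at CatVI.

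Between stages, OSalive at CatVII, given as upper ORS, was set beside UOS at AnaVI, given as upper-middle ORS. The median log2 ratio of the 10 genes was 0.14, against −0.32 over 14159 genes. Fos (0.01, −0.02 to 0.04), Jun (0.12), Egr1 (0.16) and Jund (−0.08, −0.17 to 0.01) had the smallest ratios of pooled CPM, Jund with a sign that turned under 5 of 10 alternatives. With ERCC spike-ins as the scale the ratios of these 4 genes were 0.61, 0.71, 0.76 and 0.51. The median cell did not follow the pooled level of Fos, at 71.7 CPM in UOS and 10.1 CPM in OSalive, or of Jun, at 206.2 and 144.4 CPM. Fosb was at 83.2 CPM in UOS and 172.05 CPM in OSalive, a ratio of 1.05 (1.01 to 1.09), Atf3 was at 1.004, Dusp1 at 0.94 and Hspa1a at 0.57. In the other direction, Ier2 was at 70.8 CPM in UOS and 20.4 CPM in OSalive, a ratio of −1.79 (−1.85 to −1.74), and Junb was at 73.3 and 30.4 CPM, a ratio of −1.27 (−1.32 to −1.22). At least 2-fold higher in OSalive were 2 of the 10 genes, beside 11.5% of all genes tested, and at least 2-fold lower were 2, beside 26.6%. With ERCC spike-ins as the scale these were 4 genes higher and 1 lower, beside 22.1% and 15.2% of all genes. Stage, given region, sort and library batch coincide in this comparison and cannot be told apart. Thinned to 50000 counts, Ier2 was detected in 61.3% of UOS cells and 31.5% of OSalive cells, Fos in 66.7% and 49.2%, and Egr1 in 83.8% and 53.2%, although the pooled level of Egr1 was higher in OSalive.

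The wider immediate early and stress programmes were read in OSapop against OSalive from 8 lists, chosen with earlier results of these data known. Of all genes tested, 11.3% were at least 2-fold lower and 10.6% at least 2-fold higher, which is the background for the counts of each list. Their median was 0.12, so that most of all genes tested were above 0. Of 32 other immediate early genes with enough counts, 12 were above 0, 7 were at least 2-fold lower (11.3% of all genes) and 2 at least 2-fold higher (10.6% of all genes), with a median log2 ratio of −0.37. The lowest was Ptgs2, the inducible prostaglandin synthase, with 0 counts in OSapop and 619 in OSalive, at least 52.5-fold lower when OSapop is set to 3 counts. Its OSalive counts came from 4 cells, 69.1% of them from 1, so that it passed the count filter through OSalive alone. The highest were Arc, a cytoskeleton-associated immediate early gene, at 5.30, of whose OSapop counts 94.7% came from 1 cell, and Ier5 at 2.28, on 1.53 and 0.317 CPM, with 57.1% of its OSapop counts from 1 cell. Among 13 genes of MAP kinase feedback the median was −0.63, with 4 at least 2-fold lower, beside 11.3% of all genes, and none at least 2-fold higher, beside 10.6%. Dusp4, a nuclear MAP kinase phosphatase, was lowest at −2.29, on 7 counts of 1 cell in OSapop and counts of 3 cells in OSalive, while Spred1, an inhibitor of Ras signalling, was at 0.80 and Dusp16, a phosphatase of JNK and p38, at 0.63.

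AP-1 partners had a median of 0.06 over 7 genes, from Atf7 at 0.31 and Mafg at 0.09 to Maff at −1.34. Maff rested on 17 counts in OSapop, 52.9% of them from 1 cell. The upstream kinases and factors, 18 genes, had a median of 0.01, with Rps6ka3, the kinase RSK2, at 0.98 and Elk3, a partner of serum response factor, at −1.21. Heat shock genes and chaperones had a median of 0.21 over 26 genes, with 1 at least 2-fold higher and 1 lower, beside the same 10.6% and 11.3%. Hspe1, the mitochondrial chaperonin partner of HSP60, was at 1.15 and the heat shock factor Hsf2 at 0.88. The 1 lower gene, Hspa1l, had 0 counts in OSapop and was at least 9.32-fold lower. Its 110 counts in OSalive came from 2 cells, so that it passed the count filter through OSalive alone. Genes of the integrated stress response and DNA damage had the highest median, 0.57 over 15 genes, with 4 at least 2-fold higher, beside 10.6% of all genes, and none lower, beside 11.3%. Chac1, a glutathione-degrading target of ATF4, was at 4.51, with 1.90 CPM in OSapop and 0.0835 CPM in OSalive. It rested on 9 OSapop and 3 OSalive cells, with 56.8% and 70.8% of the counts from 1 cell, and the mean of CPM per cell was 1.84 and 0.416, a smaller ratio. Trib1, a pseudokinase, was lowest in the list at −0.78.

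In the NF-kB list the median was 0.18 over 11 genes. Tnfaip3, the A20 protein that restrains NF-kB, was at 6.76 CPM in OSalive and 22.9 CPM in OSapop, a ratio of 1.76, and Nfkbiz was at −0.89. Genes of oxidative stress had a median of 0.17 over 9 genes, from Gclc, which makes a glutathione-synthesizing subunit, at 0.72 to the metallothionein Mt1 at −2.31, on 56 counts in OSapop. These medians stand beside 0.12 for all genes tested.

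**Figure D4:**
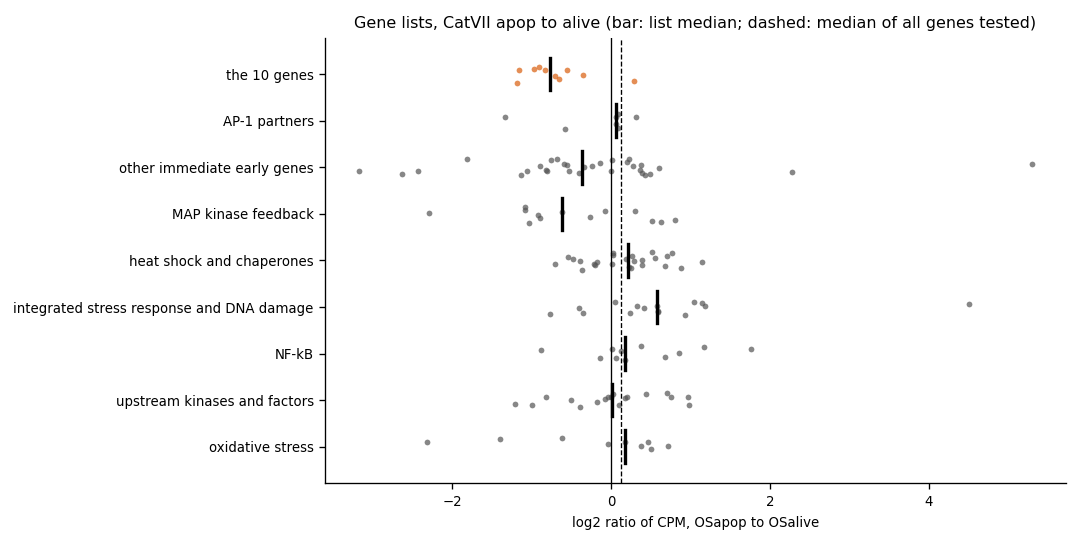
Log2 ratio of CPM in OSapop to OSalive (horizontal) for each gene with counts in both sorts (points) in the 10 genes and 8 other lists (vertical); the black bar is the list median and the dashed line is the median of all genes tested, 0.12. The 10 genes have the lowest median, −0.77, and the integrated stress response and DNA damage list the highest, 0.57. Genes and lists were chosen with earlier results of these data known.

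Over the 9 groups, the genes whose log2(CPM + 1) was most like the mean of the 10 standardised genes were Sqstm1, the autophagy receptor p62 (Pearson r = 0.915), Ski (0.886), the keratin gene Krt80 (0.878), Cpe (0.874) and Nucb1 (0.865), out of 1614 genes at 50 CPM or more in some group. Sqstm1 was highest in UOS, at 67.98 CPM. These correlations rest on 9 points that differ in depth and share pools of mice. Of the 10 genes themselves, Jun (0.888) and Fos (0.826) followed the mean most closely, and Atf3 (0.005) and Fosb (0.253) least.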

How the data were processed

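Single-cell libraries of 3 stages were analysed. The authors used STAR 2.6, mm39 and Salmon 1.4.0, summed the result per gene with tximport, and deposited estimated counts, neither normalized nor filtered, for 55335 genes and 92 ERCC spike-ins. Of 1037 labelled cells, 1 had no column and 1, whose labels conflict on stage, was left out of every group. Counts were rounded, summed over passing cells of a group and divided by the total gene count to give CPM. Symbols came from GENCODE on GRCm39, which held 93.3% of identifiers. Over the 9 groups these identifiers carried a minority of the gene counts, from 19.3% in OSalive to 28.7% in plate 2. The identifier of highest total count carried 56.3% (plate 2) to 66.5% (OSalive), and CPM and thinning depths include it. Genes with 100 or more counts over both groups were compared, a 0 was set to 3 counts, and a gene was called past a fold of 2. Intervals were exact Poisson (levels), exact binomial (ratios) or Clopper-Pearson (shares). No upper limit on genes or counts and no doublet caller was applied, since wells with several cells were excluded by qPCR at preparation. Pooled depth ran from 1840012 counts (plate 6) to 287377663 (OSalive), which sets the width of the intervals.

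The members and lists were chosen with earlier results of these data known. Named genes were the 10 members, the 2 highest and the lowest ratio in OSapop to OSalive of the first 4 lists, the highest and lowest of the others, and the 5 genes most like the members over groups. Alternatives concerned scaling, cell weights, filters, thinning, series, plates and folds. Python 3.11.15, numpy 2.4.6, pandas 2.3.3, scipy 1.17.1 and, for TMM factors, edgeR 4.0.16 in R 4.3.3 were used; the ratio and series scripts were tested on simulated data.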

Additional observations from a re-analysis of the deposited data

Results flagged for a closer look

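Egr1 stood on opposite sides of 0 in the apop to alive comparisons of the 2 catagen stages, with counting intervals that left out 0 in both. Its log2 ratio was −0.66 at CatVII (OSapop to OSalive) and 0.69 at CatVI (plate 5 to plates 1 and 2). The difference between the stages was not tested, since each group was 1 pool.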

How the results depend on the processing

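No paired analysis was possible because each group was 1 pool of cells and the numbers of wells do not pair them. For CatVII apop to alive, the median log2 ratio of the 10 genes (−0.77) was below 0 in all 14 alternatives. It was −0.85 without the most abundant gene in the total, −0.91 over annotated identifiers, −0.96 with median-of-ratios and −0.96 with TMM scaling, −0.47 with ERCC scaling, −0.99 as a mean of CPM per cell, −1.29 without the top cell of each gene, −0.99 thinned, −0.68 in series 1 and −0.88 in series 2. Scaling moved the median of all genes from 0.12 to between −0.07 (TMM) and 0.42 (ERCC) and left the difference of the set from it at −0.89, as a scaling shifts every gene alike. The alternatives that can move this difference gave −0.69 (series 1) to −1.30 (without the top cell). Junb was above 0 in 10 of 14 alternatives and Ier2 and Hspa1a were below 0 in 13. The number of genes at least 2-fold higher was 0, beside 10.6% of all genes, and 1 in series 1, beside 10.9%. At CatVI it was 0, beside 10.8%, 1 at a fold of 1.5, beside 20.2%, and 1 without plate 2, beside 11.8%. The CatVI median (−0.68) was −0.21 as a mean of CPM per cell. Of the genes past 2-fold, only Atf3 at CatVI changed sign, at 0.42 thinned; of the others at CatVI, Jun and Junb kept theirs in 11 of 13 alternatives and Jund in 12. For OSalive to UOS the median (0.14) was 0.25 without the most abundant gene, 0.52 over annotated identifiers, 0.58 with median-of-ratios, 0.62 with TMM and 0.74 with ERCC scaling, and 0.47 when the median gene was subtracted. In OSalive and UOS, the most abundant gene held 66.5% and 63.8% of gene counts, and annotated identifiers held 19.3% and 25.1%. These shares set the totals of the first 2 settings. Why the shares differ was not tested, nor were the causes of the other shifts. Leaving out 1 near-identical cell, cells under 100000 counts and CatVI cells with a count of Pecam1, Cdh5 or Col1a1, and the last value relative to all genes, were chosen after the data had been seen. Depth limits the CatVI plates most, with 9 to 19 cells each.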
